A study of Mus musculus with 9 samples.

Results

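The genes described here are 56 genes of the cell division cycle, measured in group 2 innate lymphoid cells (ILC2s) after 48 h in culture. They form a replication class of 28 genes used around S phase and a mitosis class of 28 genes used in G2 and M phase. The members were picked by symbol from lists of S phase and G2/M genes. The rule used no measured value, but the lists were drawn up with earlier results of these data known. All 56 were found among the 23234 genes listed for each library, and all 56 were among the 11014 genes that passed a filter on their mean level (1 FPKM or more). FPKM is fragments per kilobase of transcript, normalised to the mapped fragments of the library, so levels of different genes can be set side by side per length.

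ILC2s are tissue lymphocytes that lack antigen receptors and make type 2 cytokines. These were isolated from wild-type mice of the C57BL/6 strain, out of fat-associated lymphoid clusters, and cultured in 3 groups of 3 libraries. The IL-33 group received IL-33 alone at 10 ng/ml. The IFN-γ group received IL-33 with IFN-γ at 10 ng/ml, and the IL-27 group received IL-33 with IL-27 at 10 ng/ml. The labels write the dose once for each pair of cytokines, and it is read here as the dose of both. IL-33 was therefore present in every group, no group was cultured without it, and the labels give neither the age nor the sex of the animals. The libraries of each group are numbered 1 to 3, and the labels do not say whether these are separate animals or cultures, and a p-value then speaks only of how these libraries scattered.

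A cell that enters the cycle loads the MCM helicase onto replication origins in G1, fires those origins in S phase, and then builds the spindle machinery for mitosis. Transcription of the genes follows that order. E2F factors, released from retinoblastoma-family proteins, drive many replication genes at the G1/S boundary. Many mitotic genes are instead held silent by the DREAM complex and later activated by B-MYB and FOXM1, through a promoter element called the cell cycle genes homology region (CHR), often beside CCAAT boxes bound by NF-Y. IL-33 is known as a growth and activation signal for ILC2s, and IFN-γ and IL-27 are known as signals that restrain them.

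The promoters of the members differed between the 2 classes in the motifs this division of labour rests on. RefSeq promoter windows (build GRCm38.p6, 250 bases before to 50 bases after a transcription start) were at hand for 46 of the 56 members, 23 in each class. The windows of Mcm4, Gins1, Gins2, Pole, Ccne2, Ccna2, Aurkb, Foxm1, Kif20a and Tpx2 were not used here. An E2F motif (TTTCCCGC, TTTCGCGC, TTTGCCGC or TTTGGCGC on either strand) was found in 11 of 23 replication genes (47.8%) and in 1 of 23 mitosis genes (4.35%, Cdk1). It was found in 4.88% of the 7811 tested genes with a window and in 2.61% of all 27025 genes in the table. The CHR motif TTTGAA, on either strand, showed the opposite split, with 2 of 23 replication genes (8.70%, Mcm2 and Cdc45) and 16 of 23 mitosis genes (69.6%), against 14.3% of the tested genes and 20.2% of all genes in the table. The CCAAT box was common in both classes, in 13 replication genes (56.5%) and 18 mitosis genes (78.3%), against 43.9% of tested genes and 41.1% of all. A CHR and a CCAAT box stood in the same window in 15 mitosis genes (65.2%) and 2 replication genes, against 6.11% of tested genes. A match is a description of the letters and not a shown binding site. In genes of the pathway outside the members the classes lay closer together. E2F motifs stood in 13 of 39 other replication genes (33.3%) and 6 of 50 other mitotic genes (12.0%), and CHR motifs in 10 (25.6%) and 34 (68.0%) of them.

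**Figure D1:**
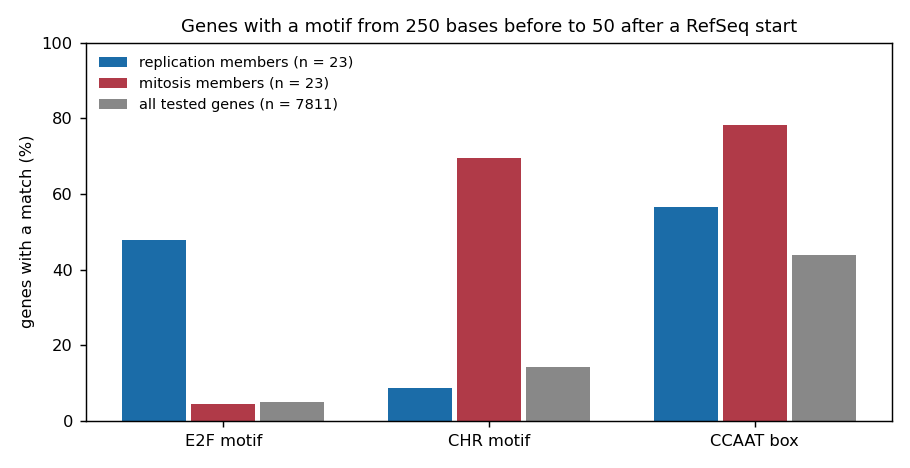
Share of genes with a motif match (percent, y axis) for the E2F motif, the CHR motif and the CCAAT box (x axis) in 23 replication members, 23 mitosis members and 7811 tested genes with a RefSeq window. The E2F bar is tallest for replication members at 47.8% and the CHR bar is tallest for mitosis members at 69.6%.

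The 8 stretches below lie upstream of the start and show the 2 promoter types, with motif matches in capitals and all other bases in lower case, written 5′ to 3′ on the strand of the gene. They were chosen after the motif positions were seen. The replication examples are Cdc6, a loader of the MCM helicase (chr11:98908003-98908030, + strand), the helicase subunits Mcm5 (chr8:75109346-75109501, + strand) and Mcm6 (chr1:128359706-128359825, − strand), and the polymerase α subunit Pola1 (chrX:93632178-93632303, − strand). Their capitals mark E2F motifs and CCAAT boxes, and in Mcm5 and Mcm6 a pair of E2F matches on opposite strands overlap and are read as 1 run of capitals.
Cdc6: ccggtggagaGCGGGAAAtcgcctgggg
Mcm5: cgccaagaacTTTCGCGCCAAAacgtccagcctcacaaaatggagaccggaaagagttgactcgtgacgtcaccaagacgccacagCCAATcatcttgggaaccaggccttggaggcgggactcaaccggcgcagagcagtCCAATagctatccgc
Mcm6: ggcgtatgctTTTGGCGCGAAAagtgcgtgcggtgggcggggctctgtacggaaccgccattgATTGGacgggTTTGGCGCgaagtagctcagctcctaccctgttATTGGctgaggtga
Pola1: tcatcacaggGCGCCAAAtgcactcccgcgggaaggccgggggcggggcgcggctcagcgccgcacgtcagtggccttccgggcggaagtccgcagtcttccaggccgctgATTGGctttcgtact

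The mitosis examples are the cyclin-dependent kinase Cdk1 (chr10:69352913-69353130, − strand), the anaphase activator Cdc20 (chr4:118437344-118437406, − strand), the spindle motor Kif11 (chr19:37376327-37376378, + strand) and Mki67, which encodes the proliferation antigen Ki-67 (chr7:135716462-135716577, − strand). Capitals mark CHR motifs and CCAAT boxes, each on either strand, and, in Cdk1 alone among the 23 mitosis members with a window, an E2F motif.
Cdk1: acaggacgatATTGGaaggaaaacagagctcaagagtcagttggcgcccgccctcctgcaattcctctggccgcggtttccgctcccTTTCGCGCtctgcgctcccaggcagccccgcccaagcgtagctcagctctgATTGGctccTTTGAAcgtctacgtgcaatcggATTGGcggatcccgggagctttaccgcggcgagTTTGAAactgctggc
Cdc20: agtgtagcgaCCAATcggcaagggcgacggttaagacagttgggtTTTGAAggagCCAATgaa
Kif11: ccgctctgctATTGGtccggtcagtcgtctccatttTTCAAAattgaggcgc
Mki67: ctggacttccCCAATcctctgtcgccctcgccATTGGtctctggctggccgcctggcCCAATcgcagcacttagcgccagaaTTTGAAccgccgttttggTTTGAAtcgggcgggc

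The libraries carried the markers of ILC2s and of cycling cells. All 12 ILC2 markers examined passed the filter, with summed levels of 14735 to 22396 FPKM in the IL-33 group, 6049 to 9926 in the IFN-γ group and 12576 to 13370 in the IL-27 group, and Mki67 stood at 38.2 FPKM or more in every library. With IFN-γ against IL-33, 5 of the 12 ILC2 markers had estimates below 0 and 7 above, with a median log2 fold change of 0.07. The 5 adipocyte markers were listed at 0 in all 9 libraries. Summed levels of 10 fibroblast markers were 40.3 to 90.5 FPKM in the replicate 3 libraries and 3.10 to 17.6 in the others. None of these markers was at 0 throughout, and 8 of the 10 had a mean of 1 FPKM or more. The 8 T cell markers summed to 82.0 to 104.7 FPKM in the replicate 3 libraries against 34.7 to 49.7 in the others. Only 2 of these 8 had a mean of 1 FPKM or more, and Cd4 and Cd5 were at 0 throughout. Depth, estimated from the steps between low values, was 885000 to 975000 fragments per library, so that 3 fragments in a 2 kb transcript were worth 1.54 to 1.70 FPKM. That estimate is approximate, since it rests on an annotation that may not be the one the authors used.

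Most members, though not all, were more abundant than the median tested gene. Member means over the 9 libraries ran from 9.65 FPKM for Ccne2, a G1/S cyclin, to 516 FPKM for Pcna. Pcna is the sliding clamp that holds DNA polymerase on its template. The median member stood at 50.3 FPKM against 14.2 FPKM for all tested genes, above 82.1% of them. The mitosis class had a median of 57.7 FPKM and the replication class of 37.3 FPKM. The fewest fragments estimated for any member in any library were about 11, for Gins1, and the median member had 66.4 in its lowest library. Counting error was therefore about 30.1% for Gins1 at its lowest and 5.42% for Mki67, which has a long transcript.

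The first question is what IFN-γ did to these genes in the presence of IL-33. With all 9 libraries fitted and no account taken of replicate numbers, limma called 320 of 11014 genes (2.91%) at a Benjamini-Hochberg adjusted p under 0.05, and 0 of the 56 members were among them. At an unadjusted limma p under 0.05 there were 4 of 56 members, all mitotic and all lower. Of the 11014 tested genes, 666 were lower and 1030 higher at that level, 15.4% in either direction. Same-numbered libraries deviated together across genes, and a fit blocked on replicate number called 513 genes lower (4.66%). In that fit 2 members fell, Mki67 and Cdc20, and 0 rose. In bulk RNA, fewer cells in a phase and less RNA per cell cannot be told apart.

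Mki67 (ENSMUSG00000031004, chr7:142881471-142908062 in mm9, − strand) encodes Ki-67, the protein that coats mitotic chromosomes and marks cycling cells. Its level was 103, 134 and 95.8 FPKM in IL-33 libraries 1, 2 and 3, and 38.2, 80.7 and 67.6 FPKM in the IFN-γ libraries. Every IFN-γ library was below every IL-33 library. The group means were 111 ± 20.3 and 62.2 ± 21.8 FPKM (SD, n = 3 each), and the log2 fold change was -0.87 ± 0.28 (SE), 1.83-fold lower on the log2(FPKM + 1) scale. The adjusted p from limma was 0.165 without the block and 0.0180 with it, where the SE shrank to 0.17.

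Cdc20 (ENSMUSG00000006398, chr4:118105506-118109957 in mm9, − strand) activates the anaphase-promoting complex so that chromatids separate. In the IL-33 libraries it stood at 88.8, 109 and 82.5 FPKM, and in the IFN-γ libraries at 39.6, 73.9 and 50.3. The groups again did not overlap, with means of 93.5 ± 14.0 and 54.6 ± 17.5 FPKM (SD, n = 3 each). The log2 fold change was -0.80 ± 0.26, 1.74-fold lower, with a limma adjusted p of 0.163 without the block and 0.00811 with it. Both calls depended on which libraries were used. With the block and without the replicate 1 libraries of all groups, 0 members were called, and the log2 fold changes were -0.61 for Mki67 (limma adjusted p = 0.0579) and -0.63 for Cdc20 (0.0538). With the block and without IFN-γ replicate 1 alone, both were called at -0.64 (limma adjusted p = 0.0287) and -0.66 (0.0272). Mki67 also missed the threshold in the blocked fit without IL-33 replicate 1 (0.0656), IL-33 replicate 2 (0.0541) or IFN-γ replicate 2 (0.0585), and Cdc20 passed in each of these.

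Beyond those 2, 4 more mitosis members had IFN-γ values that all lay below all IL-33 values, and they are named after their values were seen. These were the mitotic kinases Plk1, Aurka and Cdk1 and the spindle assembly factor Tpx2. In all, 6 of 28 mitosis members and 0 of 28 replication members were lower without overlap, against 8.65% of the tested genes. Plk1 measured 83.4, 78.2 and 72.7 FPKM in the IL-33 group against 28.3, 61.2 and 55.8 in the IFN-γ group, a log2 fold change of -0.75 ± 0.28 (limma adjusted p = 0.238, 0.0896 with the block). Aurka measured 75.9, 75.5 and 70.1 FPKM in the IL-33 group against 33.8, 49.8 and 57.6 in the IFN-γ group, a log2 fold change of -0.67 ± 0.23 (limma adjusted p = 0.185, 0.0848 with the block). In all 6 of these genes the lowest library was IFN-γ replicate 1, and the other 2 IFN-γ libraries were also below the IL-33 range. Cdk1 and Tpx2 had smaller differences of -0.51 ± 0.25 and -0.40 ± 0.25, neither past the threshold in either fit.

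**Figure D2:**
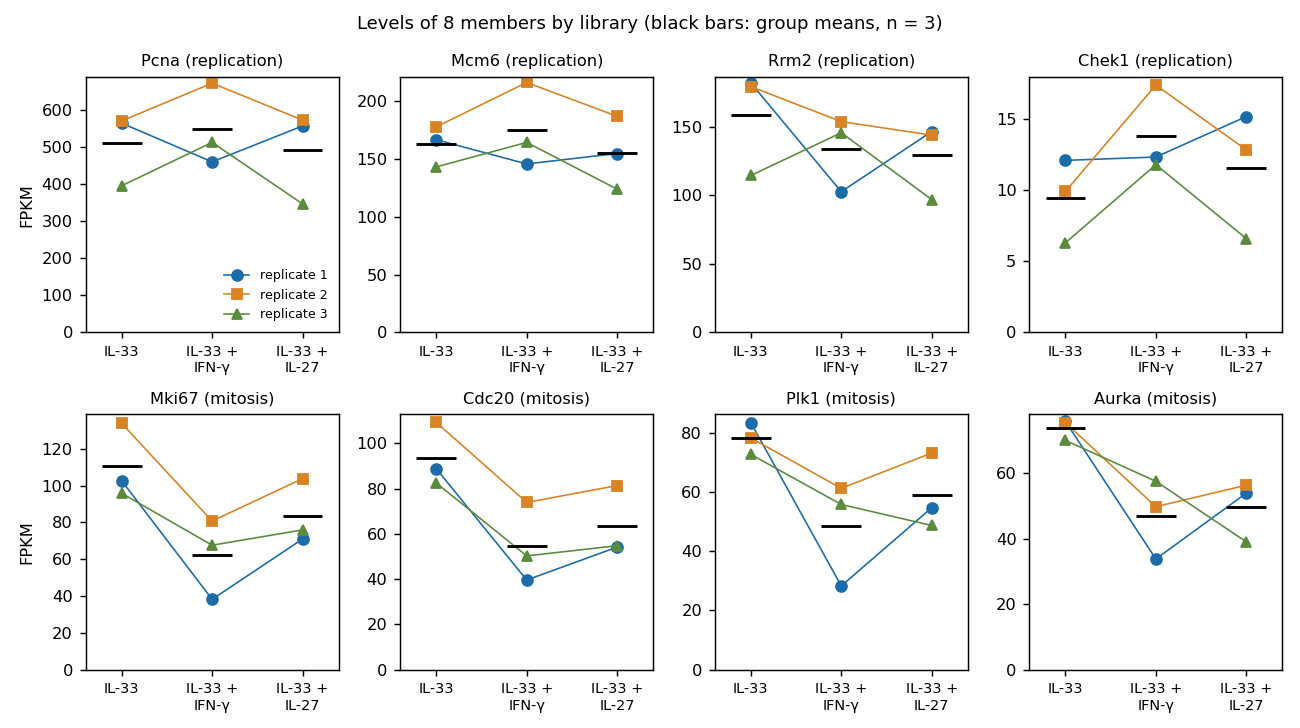
FPKM (y axis, from 0) of 8 members in each library by group (x axis), with symbols and lines for the 3 replicate numbers and black bars for group means. Mki67 and Cdc20 lie lower in all 3 IFN-γ libraries than in any IL-33 library, while the lines of Pcna and Mcm6 go down in replicate 1 and up in replicates 2 and 3.

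Other regulators of mitotic entry and exit did not share that separation. Ube2c, the ubiquitin-conjugating enzyme of the anaphase-promoting complex and the most abundant of its role, had group means of 231 ± 28.3 and 176 ± 62.3 FPKM (SD, n = 3 each), a log2 fold change of -0.45 ± 0.28. Of all 11 members of this role, with Cdc20, Aurka, Plk1 and Cdk1 counted, 10 had estimates below 0, with a median of -0.45. The exception was Aurkb, the kinase of the chromosomal passenger complex, at 0.04 ± 0.21. The 3 with an unadjusted limma p under 0.05 were Cdc20, Aurka and Plk1, all lower. At that level 666 of 11014 tested genes were lower.

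Among the 9 spindle checkpoint and kinetochore genes, 7 had estimates below 0 and the median was -0.16. Bub1, a checkpoint kinase, had the largest difference of this role at -0.49 ± 0.26 (limma adjusted p = 0.416, 0.0892 with the block). It measured 27.6, 34.5 and 26 FPKM in the IL-33 group against 15.4, 26.2 and 21.1 in the IFN-γ group, and a single library made them overlap. Cenpa, the centromeric histone, was the most abundant of this role and the most scattered, at 22.3, 68.2 and 117 FPKM in the IFN-γ libraries against 57.4, 85.5 and 77.0 with IL-33. Its highest library exceeded its lowest by 5.26 times, more than any other member.

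The spindle and cytokinesis genes had 5 of 6 estimates below 0 with a median of -0.27. Prc1, which bundles microtubules at the midzone and was the most abundant of the 6, had an estimate of -0.22 ± 0.27, while Nusap1, a microtubule stabiliser, had the only estimate above 0, at 0.27 ± 0.28. Top2a, the topoisomerase that untangles sister chromatids, was the most abundant mitosis member, with group means of 260.4 ± 31.3 and 282 ± 85.9 FPKM (SD, n = 3 each). Its difference was 0.07 ± 0.24, with a 95% interval of -0.45 to 0.60, so that the 2 members of the chromosome structure role lay far apart.

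Of the replication members, 20 of 28 had estimates above 0 against IL-33. None had an unadjusted limma p under 0.05 without the block, and with it 3 did (Gins1 lower, Rfc4 and Chek1 higher), against 26.9% of tested genes, with 0 past the adjusted threshold. Of the 8 origin licensing genes, Mcm6 was the most abundant at 167, 178 and 143 FPKM in the IL-33 libraries against 146, 216 and 164 in the IFN-γ libraries, a difference of 0.10 ± 0.21 with a 95% interval of -0.37 to 0.56. The largest difference in this role was that of Mcm4, a subunit of the same helicase, at 0.34 ± 0.28. Nearly as large but below 0 were Cdt1 at -0.34 ± 0.27 and Mcm2 at -0.33 ± 0.31. The helicase activators of the GINS complex had estimates below 0, with Gins1 at -0.51 ± 0.32 and Gins2 at -0.22 ± 0.24. Cdc45, of the same role, was at 0.12 ± 0.22. Gins1 was 11.4 FPKM in IFN-γ replicate 1 and 29.8 and 19.8 FPKM in the other 2 libraries of that group.

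All 7 polymerase, clamp and clamp loader genes had estimates above 0, with a median of 0.23, and 0 of them passed the threshold. Pcna measured 563, 569 and 395 FPKM in the IL-33 libraries against 459, 671 and 512 in the IFN-γ libraries, a difference of 0.10 ± 0.25 with a 95% interval of -0.45 to 0.66. Rfc4, a subunit of the clamp loader, had the largest difference of this role, 0.51 ± 0.32 (limma adjusted p = 0.508, 0.147 with the block). Its values, 16.1, 23.0 and 11.9 FPKM without and 18.0, 28.8 and 25.9 FPKM with the cytokine, were higher with IFN-γ in each replicate pair but overlapped between groups.

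The 4 nucleotide supply genes had a median estimate of 0.07, with 3 above 0 and 1 below. Rrm1, the large subunit of ribonucleotide reductase, differed by 0.05 ± 0.22, its partner Rrm2 by -0.23 ± 0.25 and the thymidylate synthase Tyms by 0.24 ± 0.24. Among G1/S regulators, the checkpoint kinase Chek1 had the largest estimate of all replication members at 0.53 ± 0.33 (limma adjusted p = 0.512, 0.175 with the block), from 12.1, 9.91 and 6.30 FPKM in the IL-33 libraries to 12.3, 17.4 and 11.8 in the IFN-γ libraries. Uhrf1, which recruits the maintenance DNA methyltransferase to new DNA and was the most abundant of this role, differed by 0.11 ± 0.31.

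**Figure D3:**
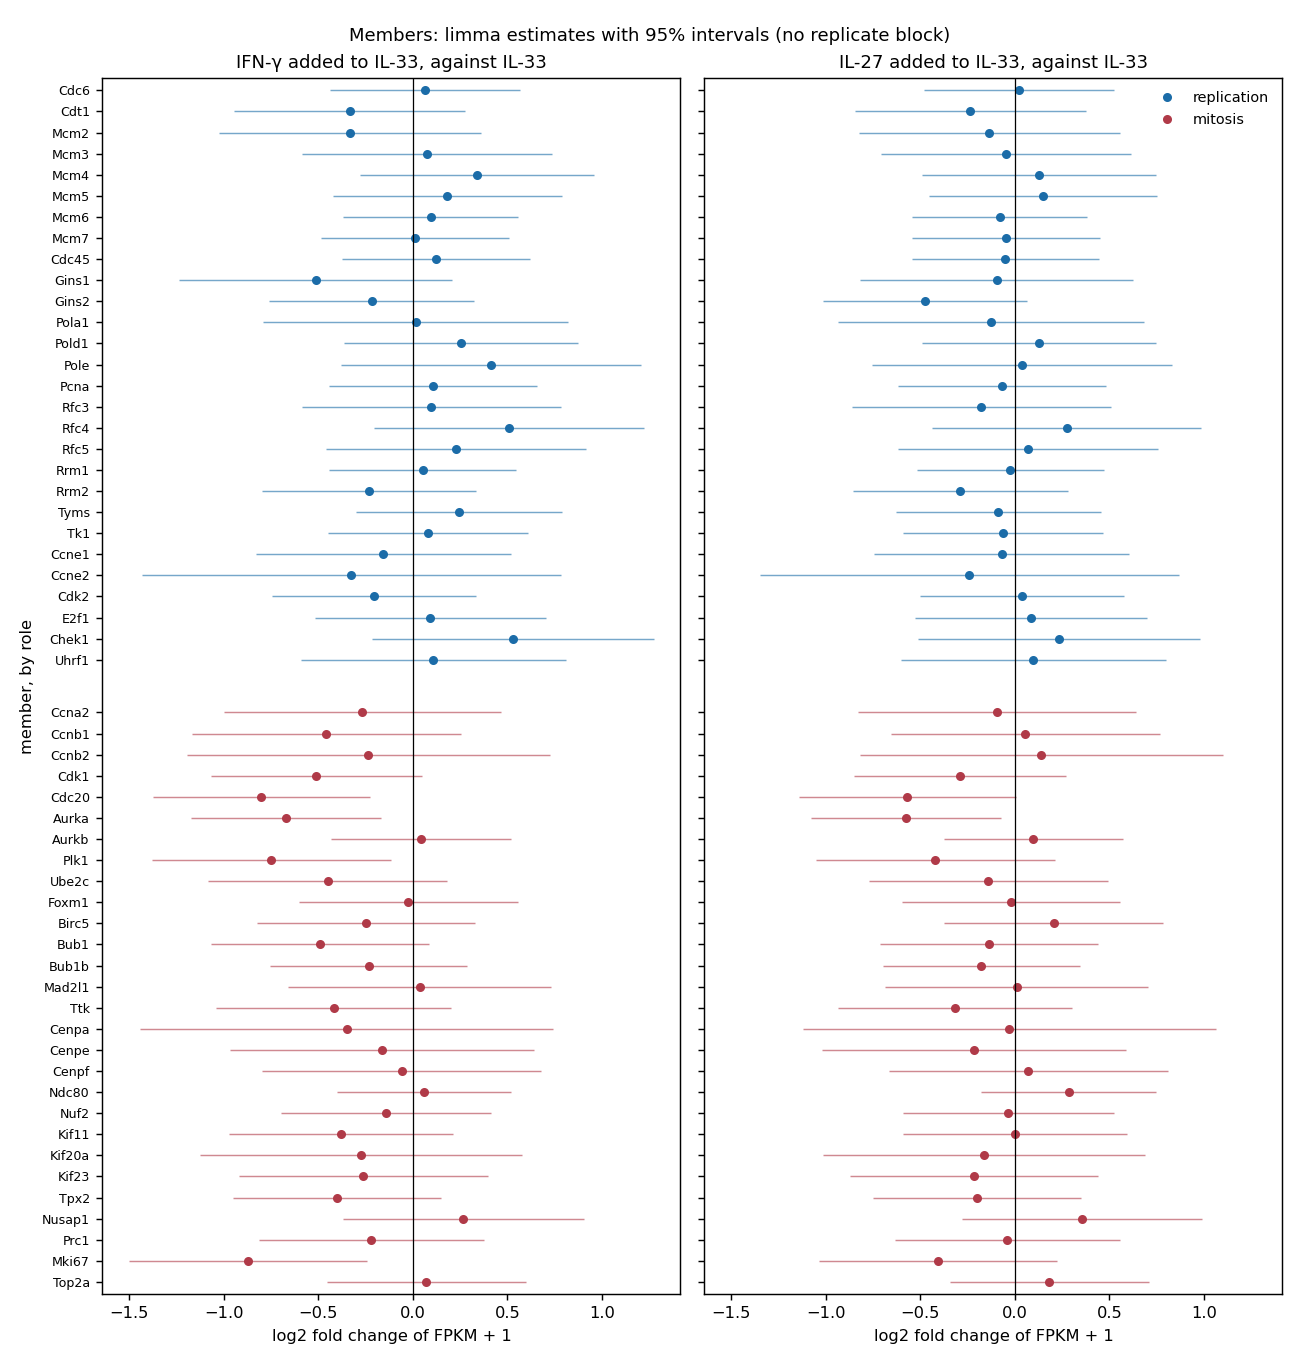
Log2 fold change of FPKM + 1 (x axis) with 95% limma intervals for the 56 members (y axis, by role) for IFN-γ (left) and IL-27 (right) against IL-33, from the fit without the replicate block. With IFN-γ, 23 of 28 mitosis estimates and 8 of 28 replication estimates lie below 0, and intervals of 4 mitosis members exclude 0.

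The 2 classes therefore had different medians, -0.26 for mitosis and 0.09 for replication, against 0.03 for all tested genes. These medians rested on the libraries unequally. Without IFN-γ replicate 1 the mitosis median was 0.07 in the fit without the block and -0.03 with the block. The replication median was -0.12 without IL-33 replicate 3 and -0.05 without IFN-γ replicate 2, both without the block, and -0.08 on replicates 1 and 2 only. With the block, the mitosis median stayed below 0 without any single library of the IL-33 or IFN-γ groups, at -0.48 to -0.03, while the replication median ran from -0.09 to 0.24.

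The replicate pairs differed from each other in the same way. In pair 1, 28 of 28 mitosis members and 26 of 28 replication members were lower in the IFN-γ library, with medians of -0.83 and -0.26. In pair 2, 20 mitosis and 7 replication members were lower, with medians of -0.09 and 0.11, and in pair 3 the counts were 13 and 3 with medians of 0.02 and 0.37. The medians over all tested genes were 0.02, 0.02 and 0 in the 3 pairs. FPKM is scaled to each library, which tends to hold such medians near 0, so the shifts of the members are relative to genes at large. A member lower in all 3 pairs was seen 12 times in the mitosis class and 3 times in the replication class (Mcm2, Gins1 and Ccne2), against 21.1% of tested genes. Higher in all 3 pairs were 2 members, Rfc4 and Chek1, against 24.4% of tested genes.

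**Figure D4:**
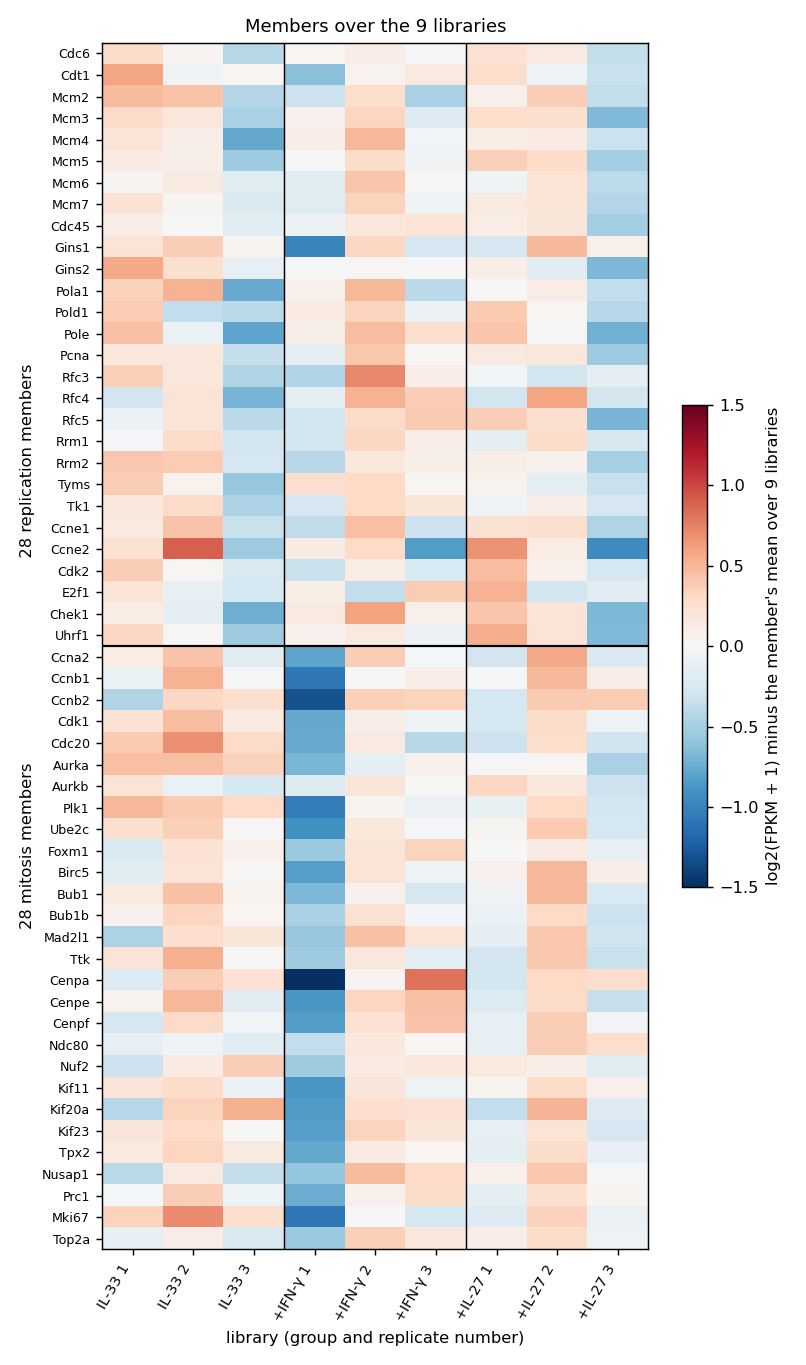
Difference of each member's log2(FPKM + 1) from its mean over the 9 libraries (colour scale, log2 units) for 28 replication members above the line and 28 mitosis members below it (y axis), by library (x axis). The column of IFN-γ replicate 1 is blue through most of the mitosis class, and the replicate 3 columns of the IL-33 and IL-27 groups are blue through most of the replication class.

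The class means by library show 2 separate patterns. The mean log2(FPKM + 1) of the mitosis members was 4.84 in IFN-γ replicate 1 and 5.49 to 5.94 in the other 8 libraries. The mean of the replication members was 5.15 and 5.12 in replicate 3 of the IL-33 and IL-27 groups and 5.42 to 5.85 in the other 7. IFN-γ replicate 1 had the lowest ILC2 marker sum, 6049 FPKM. It also had the highest macrophage marker sum, 20.4 FPKM against 1.37 to 17.6 FPKM elsewhere. Of the 10 macrophage markers, 4 (Csf1r, Mrc1, C1qa and C1qb) were listed at 0 throughout. Only 1 of the 10 had a mean of 1 FPKM or more over the 9 libraries. A sum of FPKM weighs abundant markers most, and 7 of the 12 ILC2 markers had estimates above 0 with IFN-γ against IL-33. The fibroblast and T cell marker sums were highest in the replicate 3 libraries. The part of these in the class means was not tested.

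The mean of the mitosis class minus that of the replication class was -0.18, 0.22 and 0.51 in IL-33 libraries 1 to 3. It was -0.58, -0.06 and 0.17 in IFN-γ libraries 1 to 3, so the groups overlapped. Within pairs the difference from IL-33 was -0.40, -0.28 and -0.34 log2 units, a mean of -0.34 ± 0.06 (SD, n = 3 pairs). The replication mean alone differed by -0.38, 0.14 and 0.38 in the same pairs, and the mitosis mean alone by -0.77, -0.15 and 0.04. The change with IFN-γ therefore varied less between pairs in mitosis minus replication than in either mean. That did not hold with IL-27 against IL-33, where the SD over pairs was 0.08 for mitosis minus replication and 0.01 for the replication mean. Mitotic transcripts thus stood lower relative to replication transcripts with IFN-γ in each of the 3 pairs. No p is given, because the members were chosen with results of these data known. The same difference over genes that are not members, 63 other mitotic and 47 other replication genes, was -0.25, -0.12 and -0.15 in the 3 pairs, which come from the same libraries and are not independent of the members.

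**Figure D5:**
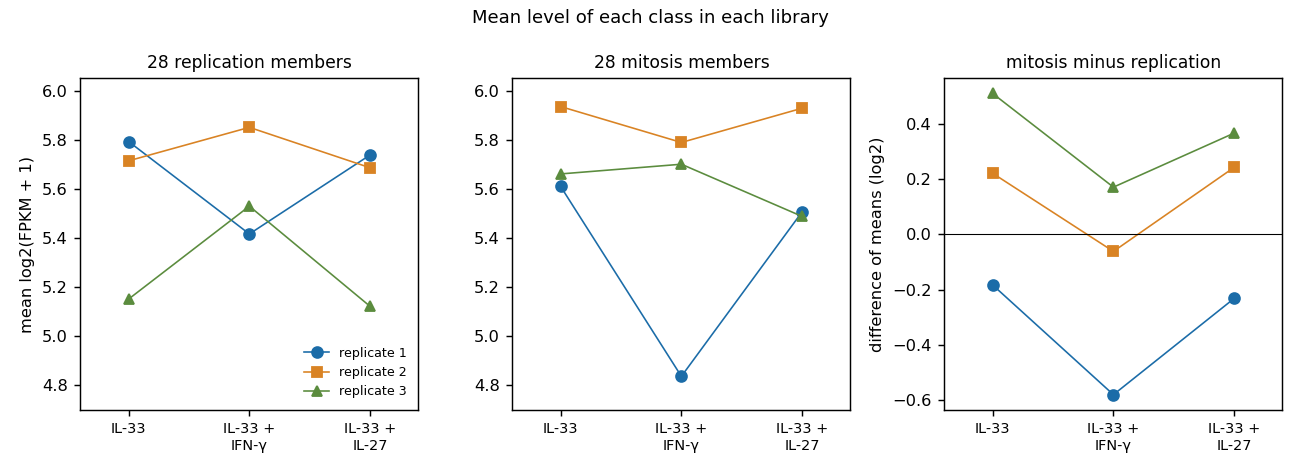
Mean log2(FPKM + 1) of the 28 replication members (left) and 28 mitosis members (middle) and the mitosis mean minus the replication mean (right, log2 units) in each library by group (x axis), with lines joining libraries of the same replicate number. In the right panel all 3 lines go down from IL-33 to IFN-γ, with steps of -0.40, -0.28 and -0.34, and come back near the IL-33 value with IL-27.

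IL-27 added to IL-33 was compared with the same 3 IL-33 libraries, so the comparisons share controls and are set side by side without a test of likeness. Without the block, limma called 113 of 11014 genes (1.03%) and 0 of the 56 members. Of the members, 1 (Aurka, lower) had an unadjusted p under 0.05. At that level 398 tested genes were lower and 649 higher, 9.51% in either direction. With the block, 196 genes were lower (1.78%) and 1 member fell, Cdc20. Its values were 54.2, 81.4 and 54.8 FPKM with IL-27, all below the IL-33 range that starts at 82.5, and its log2 fold change was -0.57 ± 0.26, 1.48-fold lower (limma adjusted p = 0.529, 0.0495 with the block). This call was lost with the block when the replicate 1 libraries were left out (limma adjusted p = 0.142). Of the 9 single libraries left out in turn with the block, only the fit without IFN-γ replicate 1 kept it (0.0294), and the other 8 gave 0.0660 to 0.189.

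Aurka was the other member whose IL-27 values, 54.0, 56.4 and 39.1 FPKM, all lay below IL-33, with a log2 fold change of -0.58 ± 0.23 (limma adjusted p = 0.427, 0.179 with the block). These 2 of 28 mitosis members and 0 of 28 replication members compare with 5.72% of tested genes. Mki67 stood at 70.9, 104 and 75.9 FPKM with IL-27, between the other groups in each replicate pair. Its difference from IL-33 was -0.41 ± 0.28 (limma adjusted p = 0.730, 0.236 with the block), with a 95% interval of -1.04 to 0.22, and it was lower in 3 of 3 pairs.

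Apart from Cdc20 with the block, no member passed the adjusted threshold with IL-27 in either fit. Lower in all 3 pairs were 10 mitosis and 3 replication members (Cdt1, Gins2 and Rrm2), against 19.5% of tested genes. Gins2 had the largest replication difference, -0.48 ± 0.24, at 45.1, 35.7 and 27.6 FPKM in the IL-33 libraries against 32.2, 26.8 and 18.5 in the IL-27 libraries. Ttk, a spindle checkpoint kinase, had the largest difference of its role at -0.32 ± 0.28. Higher in all 3 pairs were 4 mitosis members (Ccnb2, Birc5, Top2a and Nusap1, the last at 0.36 ± 0.28) and 3 replication members (Mcm5, Rfc4 and Chek1), against 23.1% of tested genes. The class medians were -0.05 for replication and -0.07 for mitosis, against 0.01 for all tested genes. The mitosis mean minus the replication mean differed from IL-33 by -0.05, 0.02 and -0.14 in the 3 pairs, a mean of -0.06 ± 0.08 (SD, n = 3 pairs).

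IFN-γ was also set against IL-27 directly. Without the block, limma called 0 of 11014 genes (0%), with 483 (4.39%) at an unadjusted p under 0.05, and 0 members reached either level. With the block it called 20 genes (0.182%) and 0 members. No member was lower without overlap, against 4.03% of tested genes, and 7 mitosis and 2 replication members were lower in all 3 pairs, against 15.7%. The largest difference was that of Ccnb1, the mitotic cyclin B1, at -0.51 ± 0.32, followed by Mki67 at -0.47 ± 0.28 with a 95% interval of -1.10 to 0.16. The mitosis mean minus the replication mean differed by -0.35, -0.30 and -0.20 in the 3 pairs, lower with IFN-γ each time, a mean of -0.28 ± 0.08 (SD, n = 3 pairs). The mitosis median of -0.18 became 0.12 without IFN-γ replicate 1 and without the block.

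Replicate number carried a larger share of the variation of most members than cytokine did. Of the variance of log2(FPKM + 1) over the 9 libraries, the median replication member had 10.2% between groups and 58.4% between replicate numbers, and the median mitosis member 16.7% and 48.4%. For all tested genes the medians were 24.7% and 38.7%. Scatter between libraries alone gives each of these shares some size, so they are not amounts explained by cytokine or by replicate number. Replicate number had the larger share in 27 of 28 replication and 24 of 28 mitosis members. Pcna had 6.37% between groups and 64.4% between replicate numbers. The 4 exceptions in the mitosis class were Aurka, with 62.8% between groups, Cdc20 with 59.3%, Mki67 with 55.8% and Plk1 with 48.5%.

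Genes of the pathway outside the members gave few calls. Of 47 other replication genes and 63 other mitotic genes tested, limma without the block called 0 against IL-33 with either cytokine. At unadjusted p under 0.05 there were 2 and 2 genes with IFN-γ and 1 and 2 genes with IL-27, all lower. The shares of all tested genes at that level, in either direction, were 15.4% and 9.51%. E2f2, an activating E2F factor, came closest with IFN-γ, at 11.9, 18.3 and 13.9 FPKM in the IL-33 libraries against 5.12, 7.69 and 8.10 in the IFN-γ libraries (difference -0.98 ± 0.24, limma adjusted p = 0.0624, 0.0169 with the block). Orc2, a subunit of the origin recognition complex, had nearly the same estimate under both cytokines, -0.72 ± 0.22 each, with limma adjusted p of 0.144 for IFN-γ and 0.253 for IL-27 (0.0307 and 0.0487 with the block). Among mitotic genes, Cdca8, a subunit of the chromosomal passenger complex, differed by -0.44 ± 0.17 with IFN-γ and -0.57 ± 0.17 with IL-27 (limma adjusted p = 0.258 and 0.253, 0.0498 and 0.0331 with the block). Cdc25c, a phosphatase that activates Cdk1, differed by -0.93 ± 0.35 with IFN-γ at a level of 1.16 to 5.90 FPKM in those groups, close to the value of a few fragments.

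Of 16 regulators of the G1 phase tested, 2 rose with IFN-γ without the block, against 2.19% of tested genes. Rbl2, which encodes the pocket protein p130 of the DREAM complex, measured 28, 29.6 and 37.7 FPKM in the IL-33 libraries against 72.7, 71.8 and 80.5 in the IFN-γ libraries, a log2 fold change of 1.22 ± 0.18 (limma adjusted p = 0.00513). Ccnd3, the D-type cyclin D3, measured 118, 84.4 and 103 FPKM in the IL-33 libraries against 174, 190.5 and 187 in the IFN-γ libraries, a log2 fold change of 0.86 ± 0.17 (limma adjusted p = 0.0267). In both genes every IFN-γ library was above every IL-33 library. With IL-27, 0 of the 16 passed without the block. Rbl2 was 55.5, 53.9 and 68.0 FPKM (0.88 ± 0.18, limma adjusted p = 0.0529, 0.00390 with the block), and Ccnd3 differed by 0.53 ± 0.17 (limma adjusted p = 0.293, 0.0624 with the block). With the block, 5 of the 16 rose with IFN-γ, against 6.51% of tested genes, adding the cyclin Ccnd2, the pocket protein gene Rbl1 and the inhibitor Cdkn1a, and Cdkn2d fell.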

How the data were processed

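Libraries were made from ILC2 RNA with the TruSeq RNA v2 kit, per the labels' protocols. Bowtie2 2.1.0, TopHat2 2.0.8, Cufflinks 2.1.1 and genome build mm9 are named in the submitters' processing notes, and the annotation is not given in the sources used here. The authors deposited 1 value per gene and library. Its unit, FPKM, is not written in the deposited tables and was inferred from Cufflinks and from the values. The replicate 3 tables hold 1 decimal and digit-grouping commas, which were removed.

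Values were analysed as log2(FPKM + 1) for genes whose mean reached 1 FPKM. All groups were fitted with limma 3.58.1 in R 4.3.3 (eBayes with trend, two-sided), with Benjamini-Hochberg adjustment over 11014 genes, a threshold of 0.05 and no covariate. Log2 fold changes are on the log2(FPKM + 1) scale and understate changes of low genes. Intervals are at 95%. No read counts were analysed here, and depth was estimated from the steps between low values of 6366 genes with a single transcript in GENCODE vM1, which also gave identifiers and mm9 coordinates. Promoter motifs were searched in the RefSeq table of 32851 windows. Tables and figures were made with Python 3.11.15, pandas 2.3.3, numpy 2.4.6 and matplotlib 3.10.9.

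Deviations from the group means correlated at 0.128 to 0.367 in the 9 library pairs of the same number and at -0.298 to -0.0251 in the 18 others, over the tested genes. All same-number pairs being above 0.1, libraries of equal number were treated as pairs. That pairing comes from the data and is not stated in the labels. Deviations from a group mean sum to 0 within the group. Positive same-number values therefore pull the other values below 0, and these add no separate evidence for the pairing.

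The members and all gene lists were chosen with earlier results of these data known. The genes named by rule were Mki67, members past the threshold in any comparison with or without the block, in each role the most abundant member and the largest difference under each cytokine, and of the other lists those past the threshold without the block and the 2 with the smallest p. The alternatives were other pseudocounts and filters, median-ratio scaling, a fit of only the groups compared, the replicate block, replicates 1 and 2 only, and each library left out.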

Additional observations from a re-analysis of the deposited data

How the results depend on the processing

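The replicate block moved the counts most, and the pairing it rests on is read from the data. With the block, members called went from 0 to 2 for IFN-γ, 0 to 1 for IL-27 and stayed at 0 between the cytokines, and it changed no other member call. Genes called were 1230, 567 and 20 in the same order, against 320, 113 and 0. With the block and median-ratio scaling, members called were 2 and 1, and genes called 1263, 580 and 21. With the block on replicates 1 and 2 only, 1 member was called for IFN-γ, and genes called were 188 for IL-27 and 3 between the cytokines. With the block and without the replicate 1 libraries, an alternative chosen after seeing the data like the blocked fits that leave out 1 library, genes called were 508, 208 and 2, and the IL-27 replication median was -0.0047. Without the block, replicates 1 and 2 only gave 176, 68 and 2 genes, a fit of only the groups compared gave 187 for IFN-γ and 63 for IL-27, and no expression filter gave 2 between the cytokines. The causes were not tested.

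Leaving out 1 library at a time, with and without the block, members called ranged from 0 to 4 for IFN-γ and 0 to 1 for IL-27, and genes called from 161 to 1000, 50 to 544 and 0 to 24. A group left with 2 libraries lent on the spread pooled over all groups. The IL-27 medians ranged from -0.25 to 0.028 for mitosis and from -0.18 to 0.17 for replication. Mki67 and Cdc20 kept their direction in every alternative run. Other pseudocounts, the 5 FPKM filter and median-ratio scaling without the block called 0 members. At 885000 to 975000 estimated fragments a library, counting error at the lowest value was 3.41% to 30.1% over the members.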
